A study of Mus musculus with 6 samples.

Results

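The muscle and ubiquitous isoenzymes of glycolysis are related enzymes that catalyse the same step but are encoded by separate genes. Probe sets were taken where the platform annotation names exactly 1 gene and that gene is Pfkm, Pfkl, Pfkp, Aldoa, Pgam1, Pgam2, Eno1, Eno3, Ldha or Ldhb. This gave 20 probe sets for 9 of the 10 genes, out of 45037 probe sets and 18193 genes named in this way. No probe set is listed under Eno1 in that annotation, so the ubiquitous enolase was not analysed here. The arrays measured total RNA of mouse embryonic hearts at E12.5 from the C57BL/6 strain. One group of 3 arrays is labelled Rhau KO and the other group of 3 is labelled wildtype. Rhau is now called Dhx36 and encodes a helicase that unwinds G-quadruplexes. The labels give neither the deleted exons nor a Cre driver, and they do not say whether the embryos labelled wildtype carried a floxed allele. The series text reads as if each array held RNA of 1 heart, but 3 of the 6 arrays gave both Xist and Y-linked signal, which RNA of 1 embryo would not normally give. How many hearts an array holds is therefore uncertain, and n = 3 counts arrays. The limma p-values weigh each difference against the spread between these arrays, with each variance drawn toward a trend over all tested probe sets.

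Glycolysis splits glucose into pyruvate, which is either reduced to lactate or oxidised in mitochondria. Phosphofructokinase commits sugar to the pathway, aldolase cleaves it, and phosphoglycerate mutase and enolase act near its end. Several of these steps have a form made in most tissues and a form made in striated muscle, and the muscle form accumulates as heart and skeletal muscle mature. The embryonic heart depends strongly on glycolysis before fatty acid oxidation takes over after birth.

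In the arrays labelled Rhau KO, the muscle forms of the late steps fell. Pgam2, the muscle phosphoglycerate mutase, fell to 61.3% of its level in the arrays labelled wildtype, and Eno3, the muscle enolase, fell to 70.2%. Pfkm, Pgam1 and 1 of 5 Aldoa probe sets fell to between 87.2% and 87.9%. No probe set of Pfkl, Pfkp, Ldha or Ldhb passed the test in either direction. In all, 5 of 20 probe sets were lower and 0 higher (limma, adjusted p below 0.05), or 25% lower. Over all 27022 probe sets tested, 6.88% were lower and 6.75% higher, together 13.6%. The count of 5 depended on the settings: it was 2 when replicate 3 labelled Rhau KO or any 1 array labelled wildtype was left out, and 3 when replicate 2 labelled Rhau KO was. In whole hearts, fewer cells of a type and less RNA per cell cannot be told apart.

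Promoter sequences of 3 genes are shown because they belong to the enzymes that moved most and to the ubiquitous partner of Pgam2. Each is the 250 bases before the annotated transcription start (RefSeq, GRCm38.p6), written on the strand of the gene from 5′ to 3′. Pgam2 lies on the minus strand (chr11:5803797-5804046), Eno3 on the plus strand (chr11:70656926-70657175) and Pgam1 on the plus strand (chr19:41911621-41911870). Capitals in Pgam2 and Eno3 mark the MEF2 motif and the E-box CANNTG, which muscle transcription factors bind. Capitals in Pgam1 mark ACGTG, the core of the hypoxia response element.
Pgam2: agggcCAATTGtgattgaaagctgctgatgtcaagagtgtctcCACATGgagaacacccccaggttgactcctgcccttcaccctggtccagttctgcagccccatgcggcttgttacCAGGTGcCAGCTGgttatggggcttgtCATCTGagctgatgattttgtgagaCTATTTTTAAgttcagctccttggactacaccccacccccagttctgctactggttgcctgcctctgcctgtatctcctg
Eno3: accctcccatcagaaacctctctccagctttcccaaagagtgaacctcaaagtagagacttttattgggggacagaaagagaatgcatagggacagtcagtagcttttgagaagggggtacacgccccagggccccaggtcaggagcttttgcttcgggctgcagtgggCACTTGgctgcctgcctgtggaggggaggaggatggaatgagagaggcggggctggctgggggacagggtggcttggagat
Pgam1: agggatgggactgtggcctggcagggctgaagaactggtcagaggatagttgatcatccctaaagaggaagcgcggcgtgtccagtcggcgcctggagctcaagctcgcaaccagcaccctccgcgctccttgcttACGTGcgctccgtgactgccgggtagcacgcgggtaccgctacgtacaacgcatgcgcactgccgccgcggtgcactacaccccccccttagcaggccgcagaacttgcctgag
The Pgam2 window holds 1 MEF2 match and 5 E-boxes, the Eno3 window 0 MEF2 matches and 1 E-box, and the Pgam1 window neither motif and 1 ACGTG. Both strands were searched in 32851 windows of this length over all genes. A MEF2 match was present in 2.92% of them, an E-box in 66.2% and ACGTG in 16.6%. Among 18 windows of the 10 isoenzyme genes, 1 held MEF2, 12 an E-box and 6 ACGTG. An E-box that reads CACGTG also contains ACGTG, so these counts overlap. TNAAGTG, a core bound by NKX2-5, was found in 1 of the 18 windows, at Ldha, and in 10.1% of all windows. A pattern of 4 runs of at least 3 G separated by 1 to 7 bases, as in G-quadruplexes, was found in 6 of the 18 and in 16.7% of all windows. Those 6 windows belong to Pfkm, Eno1 and Aldoa alone, and the 6 with ACGTG to Pfkm, Pgam1, Aldoa and Ldha. Some windows of Eno1 and of Aldoa overlap, so the same letters were counted more than once. The 18 windows are thus not independent, and whether any motif is enriched was not tested. None of these 3 printed windows held TNAAGTG or the G-run pattern. A match describes letters in the window and not a bound site.

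The targeted gene ran against the labels. On all 3 of its probe sets Dhx36 had more signal in the arrays labelled Rhau KO, by 1.41, 1.10 and 0.90 on the log2 scale (adjusted p = 3.35e-05, 0.000267 and 0.000186, limma). Whether these probe sets lie in the deleted part is not given, and whether the labels of the groups were exchanged was not tested. If they were, every direction given above and below would turn, and the 1.63-fold fall of Pgam2 would be a rise of that size. Groups are therefore called by their labels. Y-linked signal also differed between the groups. Set to 100% in the highest array, the arrays labelled Rhau KO held 59.6, 82.8 and 100% and those labelled wildtype 1.23, 2.04 and 39.3%, in replicate order. Xist was measured beside Y-linked signal in replicates 1 and 2 labelled Rhau KO and in replicate 3 labelled wildtype. Median log2 signals lay between 6.68 and 6.80, and arrays carry no read depth.

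Values below are log2 MAS5 signals as deposited, differences are labelled Rhau KO minus labelled wildtype, and replicates are given in the order 1 to 3. All 20 probe sets passed the filter on low signal. Their mean signals lay between the 64.5th and the 99.6th percentile of all probe sets. Whether the brightest were saturated was not tested.

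**Figure D1:**
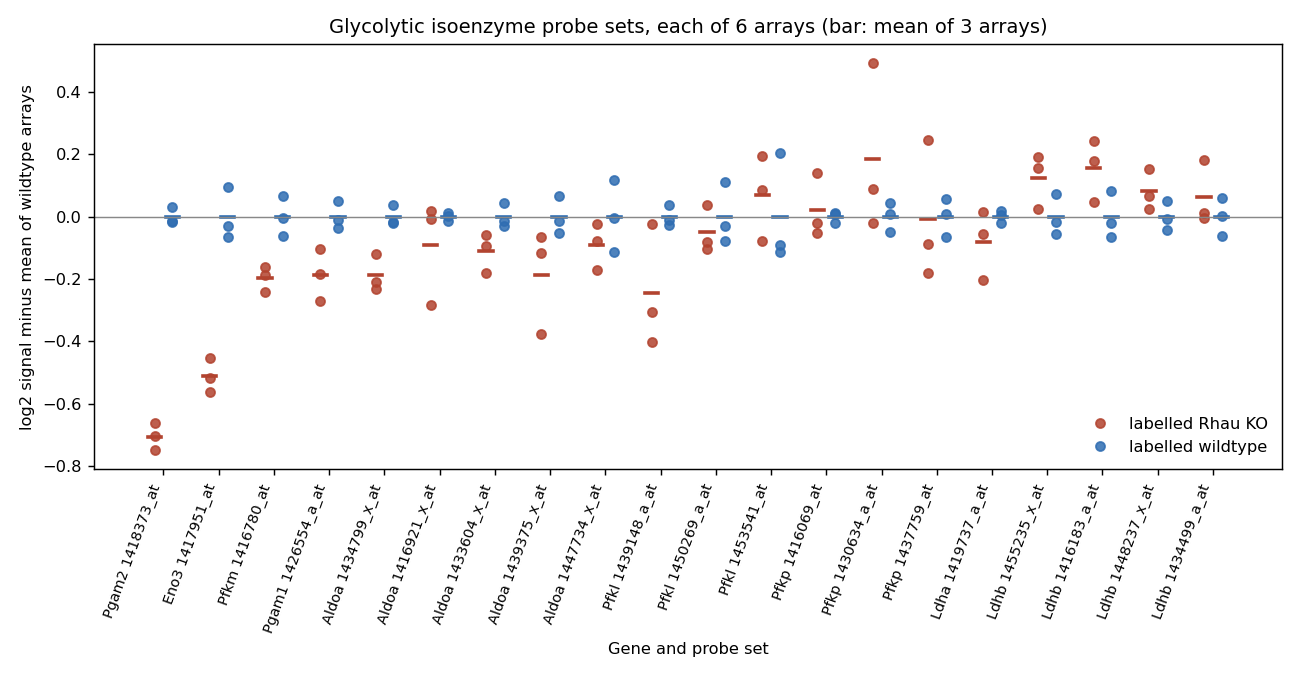
Each point is 1 array's log2 signal for a probe set, minus the mean of the 3 arrays labelled wildtype, for the 20 isoenzyme probe sets; short bars are means of 3 arrays. Pgam2 and Eno3 stand apart at mean differences of -0.71 and -0.51, with all arrays labelled Rhau KO below all arrays labelled wildtype.

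Phosphofructokinase has a muscle subunit (Pfkm), a liver subunit (Pfkl) and a platelet subunit (Pfkp), which combine into mixed enzymes in many tissues. Pfkm was at 11.09, 11.01 and 11.06 in the arrays labelled Rhau KO and at 11.31, 11.24 and 11.19 in those labelled wildtype. The groups did not overlap, although the gap between the nearest arrays was small. The difference was -0.20 (SE 0.057, adjusted p = 0.0455, limma, n = 3 each). This call was lost when any 1 of the 6 arrays was left out, with adjusted p between 0.0599 and 0.162, and its difference was -0.08 once Y-linked signal entered the fit as a covariate.

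Pfkl was measured by 3 probe sets that did not move together. The brightest was at 10.44, 10.16 and 10.06 in the arrays labelled Rhau KO and at 10.50, 10.43 and 10.45 in those labelled wildtype. The groups overlapped through replicate 1 labelled Rhau KO, and the difference of -0.24 missed the threshold (95% interval -0.45 to -0.04, adjusted p = 0.107, limma). Without replicate 1 labelled Rhau KO the difference was -0.35 and passed (adjusted p = 0.0150, limma). The other Pfkl probe sets differed by -0.05 and 0.07 without a call. Pfkp differed by 0.02, 0.19 and -0.01 on its 3 probe sets, with 95% intervals of -0.11 to 0.15, -0.12 to 0.49 and -0.30 to 0.29. On its dimmer probe sets, replicate 1 labelled Rhau KO was the highest of the 6 arrays, at 8.78 and 8.43.

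Aldoa encodes aldolase A, the main aldolase of muscle, red cells and most embryonic tissue. Its brightest probe set was at 14.20, 14.30 and 14.18 in the arrays labelled Rhau KO and at 14.45, 14.39 and 14.40 in those labelled wildtype. The groups did not overlap, and the difference was -0.19 (SE 0.047, adjusted p = 0.0250, limma). The other 4 Aldoa probe sets were also negative, between -0.19 and -0.09, but none passed (adjusted p from 0.128 to 0.450). All 5 carry the suffix x_at, which Affymetrix gives to probe sets whose probes may also bind other transcripts. The call was lost without replicate 1 or 3 labelled Rhau KO (adjusted p = 0.0792 and 0.0579) and without replicate 1, 2 or 3 labelled wildtype (adjusted p = 0.110, 0.0731 and 0.0698, limma).

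Among the 4 isoenzyme pairs compared below, that of phosphoglycerate mutase showed the widest split. Pgam2 was at 13.17, 13.08 and 13.13 in the arrays labelled Rhau KO and at 13.86, 13.82 and 13.81 in those labelled wildtype. The spread within each group was far smaller than the gap between them. The difference of -0.71 (SE 0.045) corresponded to 61.3% of the wildtype-labelled level (95% interval 57.2% to 65.7%, adjusted p = 1.21e-05, limma). Pgam1, the form made in most tissues, was at 13.33, 13.16 and 13.25 in the arrays labelled Rhau KO and at 13.39, 13.42 and 13.48 in those labelled wildtype. Its groups were also apart, with a difference of -0.19 (SE 0.053, adjusted p = 0.0438, limma). The Pgam1 call was lost without replicate 2 or 3 labelled Rhau KO (adjusted p = 0.0778 and 0.0793) and without replicate 1, 2 or 3 labelled wildtype (adjusted p = 0.0861, 0.109 and 0.148, limma). The Pgam2 call was kept under every alternative that left more than 1 array in each group, at differences between -0.75 and -0.64.

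Enolase makes phosphoenolpyruvate, the last intermediate before pyruvate. Eno3 was at 12.55, 12.51 and 12.62 in the arrays labelled Rhau KO and at 13.16, 13.01 and 13.04 in those labelled wildtype. No array labelled Rhau KO reached the lowest array labelled wildtype. The difference was -0.51 (SE 0.056), or 70.2% of the wildtype-labelled level (95% interval 64.5% to 76.5%, adjusted p = 0.000304, limma). When each array was left out in turn, it lay between -0.54 and -0.46 with adjusted p from 0.000724 to 0.00217 (limma). Once Y-linked signal entered the fit as a covariate, the difference was still -0.51 but missed the threshold (adjusted p = 0.154, limma). That fit called only 28 probe sets higher and 110 lower among all 27022 tested.

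Lactate dehydrogenase joins pyruvate and lactate. Ldhb, the form that predominates in the adult heart, was measured by 4 probe sets, all with positive differences between 0.06 and 0.16 and none called (adjusted p from 0.121 to 0.535, limma). The largest of these had 13.10, 12.91 and 13.04 in the arrays labelled Rhau KO and 12.94, 12.84 and 12.79 in those labelled wildtype, and the groups overlapped. It passed without replicate 2 labelled Rhau KO, at 0.21 (adjusted p = 0.0352). Ldha, the form that predominates in skeletal muscle, was at 14.32, 14.10 and 14.25 in the arrays labelled Rhau KO and at 14.28, 14.31 and 14.32 in those labelled wildtype. Its difference was -0.08 (95% interval -0.21 to 0.04, adjusted p = 0.383).

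**Figure D2:**
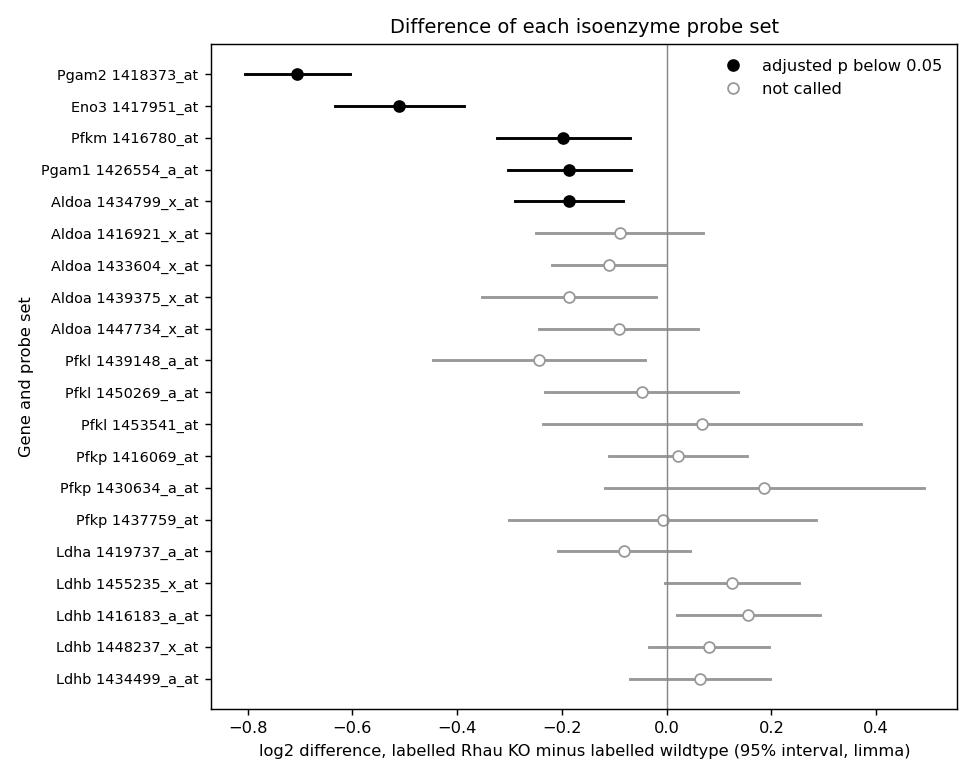
Points are log2 differences (labelled Rhau KO minus labelled wildtype) for the 20 isoenzyme probe sets and lines are 95% intervals from limma; filled points have adjusted p below 0.05. The interval of Pgam2 runs from -0.80 to -0.61 and that of Eno3 from -0.63 to -0.39, while the 4 Ldhb probe sets lie above 0 without a call.

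Some markers of muscle cells were lower together with Pgam2 and Eno3. Of 12 cardiomyocyte markers 5 were lower, 0 higher and 7 not called, with a median difference of -0.13, against 9.75% lower over all genes. Myh7 and Nppa were not called, at 0.16 and 0.03. The count of 5 was 2 when any 1 array labelled wildtype was left out, and 0 once Y-linked signal entered the fit. Their summed linear signal ran from 265146 to 305061 in the arrays labelled Rhau KO and from 307256 to 319346 in those labelled wildtype. Of 9 tested skeletal muscle markers, which include Ckm, 4 were lower, 0 higher and 5 not called, Myh3 at 0.63 among the last, with a median of -0.32. The count of 4 was 4 to 5 leaving out 1 array and 2 once Y-linked signal entered the fit. The largest difference was that of Tnnt3, at -3.89 (adjusted p = 3.32e-06, limma). The summed signal of the list ran from 14040 to 15962 in the arrays labelled Rhau KO and from 29534 to 30524 in those labelled wildtype. Acta1 was the brightest gene of the list and weighed most in this sum. Acta1, the skeletal actin that the embryonic heart also makes, was at 13.19, 12.89 and 13.02 in the arrays labelled Rhau KO and at 14.12, 14.17 and 14.19 in those labelled wildtype. Myod1 and Myog, which define skeletal muscle, lay below the filter on low signal. Myod1 was at 5.68, 6.02 and 3.48 in the arrays labelled Rhau KO and at 5.24, 6.12 and 5.12 in those labelled wildtype. Myog was at 6.87, 5.66 and 6.05 in the arrays labelled Rhau KO and at 6.03, 5.06 and 5.60 in those labelled wildtype. Tnnc2 and Myh8, also below that filter, differed by 0.41 and 0.61. All 12 cardiomyocyte markers passed the filter, the dimmest, Ryr2, at the 95.7th percentile of mean signal. All 13 endothelial markers passed it too, so passing does not identify the tissue. The part of the muscle markers in the isoenzyme differences was not tested.

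Arrays of one label also differed among themselves. Of the 20 probe sets, 10 had their lowest value in replicate 2 labelled Rhau KO and 0 had their highest value there. Replicate 1 labelled Rhau KO gave the highest value for 6 probe sets and the lowest for 0. The groups did not overlap for 7 probe sets, each lower in the arrays labelled Rhau KO, against 14.5% of all tested probe sets in that direction. No probe set was wholly higher in the arrays labelled Rhau KO, against 19.4% of all.

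Isoenzymes of one step were then compared within each array, as the log2 signal of one gene minus that of its partner. Such a difference shows only whether both changed alike, since probe sets differ in brightness. Pgam2 minus Pgam1 was -0.16, -0.08 and -0.12 in the arrays labelled Rhau KO and 0.47, 0.40 and 0.33 in those labelled wildtype. The 3 arrays labelled Rhau KO lay below the 3 others, and the shift was -0.52 (SE 0.046). Pfkm minus Pfkp was -0.91, -0.80 and -0.77 in the arrays labelled Rhau KO and -0.52, -0.62 and -0.68 in those labelled wildtype, a shift of -0.22 (SE 0.062) with no overlap. Ldhb minus Ldha was -1.22, -1.17 and -1.19 in the arrays labelled Rhau KO and -1.30, -1.42 and -1.47 in those labelled wildtype. That shift was 0.21 (SE 0.052), again without overlap and in favour of Ldhb. Pfkm minus Pfkl overlapped between the groups, with a shift of 0.05 (SE 0.106). The 3 pairs without overlap each had p = 0.1 in a two-sided exact permutation test, the smallest that 3 arrays against 3 allow, and 0.133 after adjustment over 4 pairs. The remaining pair had p = 0.7 (exact permutation). The test could therefore not reach the threshold, and Eno3 had no measured partner.

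**Figure D3:**
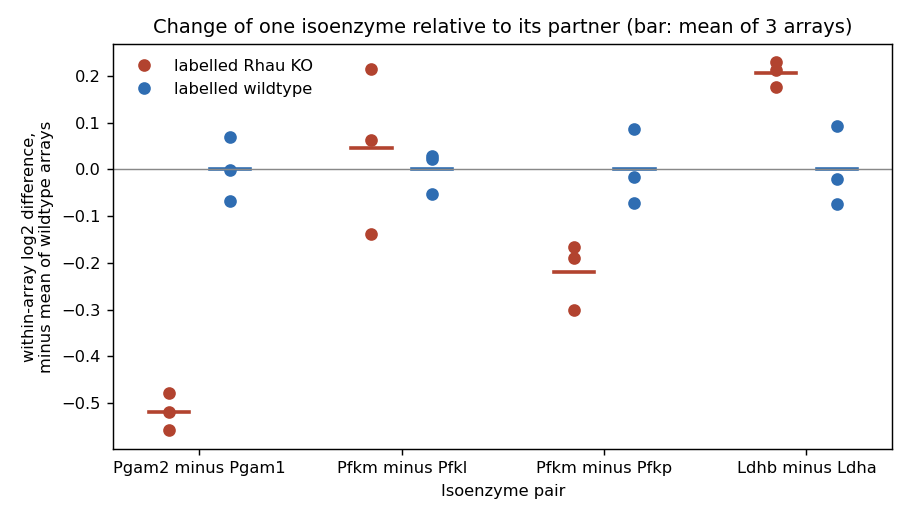
Points are within-array log2 differences between isoenzymes for 4 pairs, minus the mean of the 3 arrays labelled wildtype; bars are means of 3 arrays. The Pgam2 to Pgam1 pair shifted by -0.52, the Pfkm to Pfkp pair by -0.22 and the Ldhb to Ldha pair by 0.21.

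The 5 genes whose signal most resembled Pgam2 over the 6 arrays were Asns, Clta, Copg1, Adcy6 and Kctd9, among 12415 other genes, each by its probe set of highest mean. Pearson r was 0.999 for each of them. Pgam2 values form 2 clusters by label, and these genes were picked for likeness to Pgam2. That every array labelled Rhau KO lay below every array labelled wildtype for all 5 therefore follows from the choice. Over all tested probe sets, 14.5% were apart in this direction. Of the 5, Clta was not called (adjusted p = 0.0943, limma). Among the isoenzymes, r with Pgam2 was 0.984 for Eno3, 0.941 for Pfkm, 0.909 for Aldoa and 0.883 for Pgam1. It was 0.762 for Pfkl, 0.576 for Ldha, -0.12 for Pfkp and -0.64 for Ldhb.

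Genes around these enzymes were read from 8 lists, each gene by its probe set of highest mean. The lists cover glucose metabolism and also HIF genes and targets (17 tested) and creatine metabolism (6 tested). Of 82 tested genes 20 were lower and 5 higher, or 24.4% and 6.10%. Over all 12416 genes the same fit gave 9.75% lower and 6.77% higher. The median difference was -0.06 in the lists and 0.01 over all genes. Without replicate 1 labelled wildtype 11 genes of the lists were lower, and 1 was, Bpgm, once Y-linked signal entered the fit as a covariate.

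Most other glycolytic enzymes were not called. Of 11 tested genes 3 were lower and 0 higher. Aldoc, the brain form of aldolase, was at 9.49, 9.18 and 9.26 in the arrays labelled Rhau KO and at 9.85, 9.93 and 10.02 in those labelled wildtype, a difference of -0.62 (adjusted p = 0.00196, limma). Hk1, the hexokinase of most tissues, fell by 0.23 on the log2 scale (adjusted p = 0.0208). With the Y-linked covariate Hk1 was at -0.11 (adjusted p = 0.779). The Hk1 call was also lost without replicate 3 labelled Rhau KO (adjusted p = 0.0568) and without replicate 1, 2 or 3 labelled wildtype (adjusted p = 0.0531, 0.0799 and 0.0636). A dimmer Hk1 probe set was called as well, at -0.53 (adjusted p = 0.0229, limma).

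Bpgm, the bisphosphoglycerate mutase of red cells, is a relative of the Pgam enzymes. It was at 10.24, 10.60 and 10.93 in the arrays labelled Rhau KO and at 11.48, 11.56 and 11.87 in those labelled wildtype, a difference of -1.05 (SE 0.152, adjusted p = 0.00161, limma). Its other 2 probe sets were called as well, at -0.99 and -1.05. With the Y-linked covariate its difference was -1.91. Some markers of red cells were lower as well. Of 10 tested erythroid genes 7 were lower and 0 higher, against 9.75% lower over all genes. The embryonic globins Hba-x and Hbb-y, both at -0.10, and Gata1 at -0.56 were not called. Alas2, which starts heme synthesis in red cells, was at 9.02, 9.62 and 10.16 in the arrays labelled Rhau KO and at 10.90, 10.82 and 11.25 in those labelled wildtype. The part of red cells in these results was not tested.

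The creatine kinase list, which handles the phosphocreatine energy store, held a muscle and a ubiquitous form that can be set beside the glycolytic ones. Ckm, the muscle form, was at 9.54, 9.62 and 10.28 in the arrays labelled Rhau KO and at 10.82, 10.88 and 10.86 in those labelled wildtype. It fell by 1.04 on the log2 scale (SE 0.156, adjusted p = 0.00191, limma), while a dimmer probe set of the gene differed by 0.24 without a call. With the Y-linked covariate Ckm was at -1.60 and missed the threshold (adjusted p = 0.0549). Ckb, the brain form, fell by 0.24 (adjusted p = 0.0405). The Ckb call was lost without replicate 2 or 3 labelled Rhau KO (adjusted p = 0.104 and 0.0981) and without replicate 1, 2 or 3 labelled wildtype (adjusted p = 0.0608, 0.0923 and 0.139). Gatm, which makes the creatine precursor, rose by 0.89 (adjusted p = 0.000378). In all, 2 of 6 tested genes were lower and 1 higher.

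The list of pyruvate entry to mitochondria holds the pyruvate carrier, the pyruvate dehydrogenase complex and the enzymes that regulate it. Of 13 tested genes 6 were lower and 1 higher. The count of 6 was 3 without replicate 1 or replicate 3 labelled wildtype, 1 without the eBayes trend and 0 with the Y-linked covariate. Mpc1, a subunit of the mitochondrial pyruvate carrier, was at 11.67, 11.66 and 11.63 in the arrays labelled Rhau KO and at 12.18, 12.20 and 12.17 in those labelled wildtype. Its difference was -0.53 (SE 0.047, adjusted p = 8.10e-05, limma) and each group was narrow. Pdhb and Pdha1, which encode the first enzyme of the pyruvate dehydrogenase complex, fell by 0.40 and 0.34 (adjusted p = 0.0117 and 0.00389). With the Y-linked covariate they were at -0.04 and -0.20 (adjusted p = 0.949 and 0.575). A dimmer probe set of each was called as well without that covariate, at -0.52 for Pdhb and -0.34 for Pdha1. Pdk3, a kinase that inhibits that complex, rose by 0.50 (adjusted p = 0.00153).

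Glycogen genes changed in both directions, with 4 of 16 lower and 2 higher. The brain and liver glycogen phosphorylases Pygb and Pygl fell by 0.59 and 0.48 (adjusted p = 0.000219 and 0.00600, limma), and Ugp2, which makes the glucose donor for glycogen, fell by 0.42 (adjusted p = 0.00104). The muscle phosphorylase Pygm, named after its values were seen, fell by 0.34 (adjusted p = 0.0225), less than the other forms, and these differences between forms were not tested. The 4 lower genes were 2 without the eBayes trend and 0 with the Y-linked covariate, under which Ugp2 was at -0.28. Phka2, a regulatory subunit of phosphorylase kinase, rose by 0.36 (adjusted p = 0.0169). With that covariate Phka2 was at 0.20. The Phka2 call was lost without replicate 1 or 3 labelled Rhau KO (adjusted p = 0.0503 and 0.0543) and without replicate 1 or 2 labelled wildtype (adjusted p = 0.0606 and 0.0629).

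Transport was lower for 2 of 8 genes. Slc16a7, a carrier of pyruvate and lactate, fell by 0.78 (adjusted p = 0.0132) and Bsg, a partner protein of lactate carriers, by 0.21 (adjusted p = 0.0171). Both calls were lost without replicate 1 labelled wildtype (adjusted p = 0.0593 and 0.0662) and without replicate 2 labelled wildtype (adjusted p = 0.0517 and 0.0745, limma). Of 4 genes that set the level of fructose bisphosphates 0 were called, with Pfkfb3 at 0.10 and Pfkfb2 at 0.31. Of 7 pentose phosphate genes 0 were called, with Tkt at -0.03 and Taldo1 at -0.19. Taldo1 passed without replicate 3 labelled Rhau KO, at -0.25 (adjusted p = 0.0325).

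HIF, the transcription factor of the hypoxia response, is known to raise many glycolytic genes. Hif1a itself was at 13.01, 12.90 and 13.04 in the arrays labelled Rhau KO and at 12.42, 12.51 and 12.56 in those labelled wildtype, a rise of 0.49 (SE 0.056, adjusted p = 0.000409, limma). A dimmer Hif1a probe set was called as well, at 0.47, while another at 0.54 was not. In the list of HIF genes and targets, Hif1a was the 1 higher gene of 17, and 3 were lower. Ndrg1, Ddit4 and Kdm3a fell by 0.64, 0.48 and 0.37 (adjusted p = 0.00898, 0.00720 and 0.0388). With the Y-linked covariate none of these 3 was called, and Ndrg1 was at -0.10 (adjusted p = 0.906). Without it, dimmer Ndrg1 probe sets were called at -0.78 and -0.92, while another at -0.49 was not. The Kdm3a call was lost without replicate 1, 2 or 3 labelled wildtype (adjusted p = 0.0819, 0.124 and 0.0789), and without replicate 1 labelled Rhau KO 6 genes of the list were lower.

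**Figure D4:**
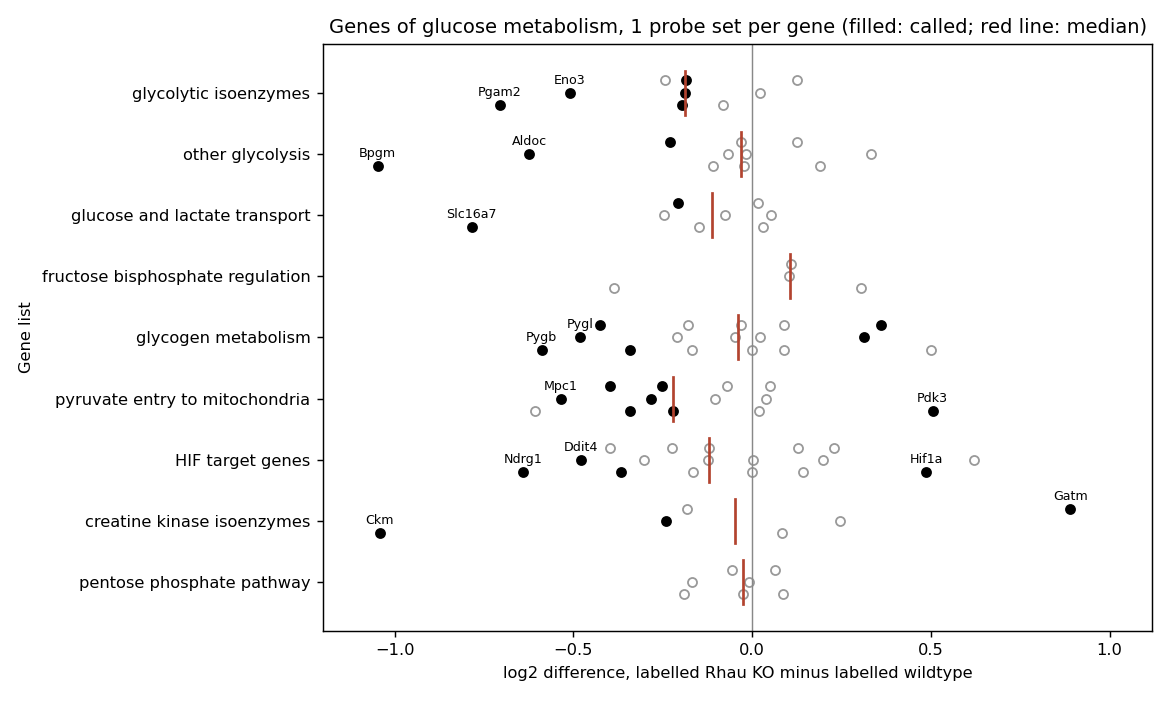
Each point is the log2 difference (labelled Rhau KO minus labelled wildtype) of 1 tested gene, for the isoenzymes and 8 lists of related genes; filled points were called and red lines are list medians. Pgam2 and Eno3 lead the isoenzymes at -0.71 and -0.51, and Bpgm, Ckm and Gatm lie furthest out at -1.05, -1.04 and 0.89.

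Y-linked signal was higher in every array labelled Rhau KO than in any labelled wildtype, so it differed together with the labels. With this signal as a covariate, calls over all 27022 tested probe sets went from 1824 higher and 1858 lower to 28 and 110. Among the isoenzymes 1 probe set was called in place of 5. It was Pgam2, at -0.64 (adjusted p = 0.0366, limma). Replicate 3 labelled wildtype, with 39.3% of the highest array's signal, had 13.81 for Pgam2 and 13.04 for Eno3. The other arrays labelled wildtype, with 1.23% and 2.04%, had 13.86 and 13.82 for Pgam2 and 13.16 and 13.01 for Eno3. A single array between the groups does not test the part of Y-linked signal in these differences.

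**Figure D5:**
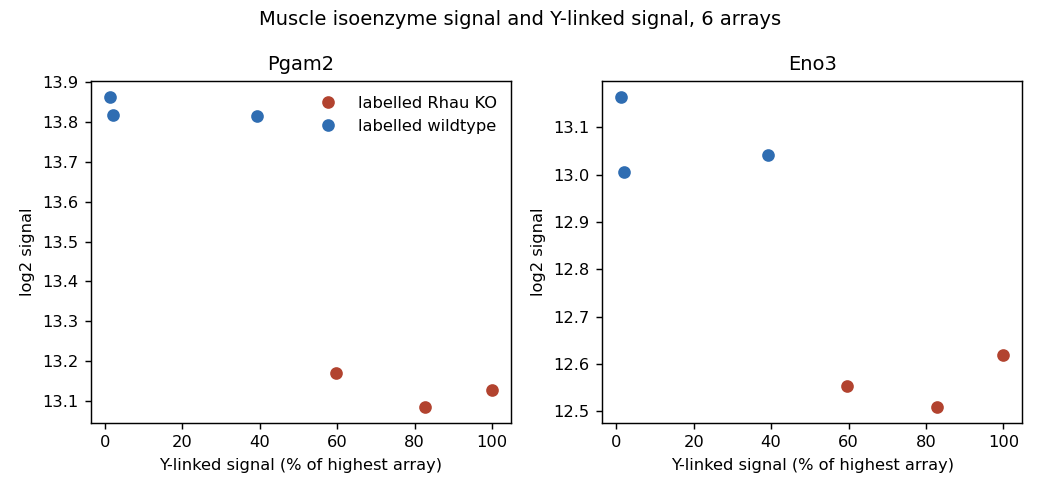
Log2 signal of Pgam2 and Eno3 is plotted against Y-linked signal (percent of the highest array) for the 6 arrays. All 3 arrays labelled Rhau KO lie at 59.6% or more and all 3 labelled wildtype at 39.3% or less, so signal and label differ together.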

How the data were processed

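RNA of embryonic mouse hearts was measured on 6 Affymetrix mouse expression arrays, 3 labelled Rhau KO and 3 labelled wildtype. The number of hearts per array is uncertain, since 3 arrays held both Xist and Y-linked signal. The deposited values are log2 signals that the authors made with MAS5, per the submitters' processing notes, and the trimmed mean of linear signal was 500 on each array. Of 45101 probe sets, 64 controls were left out, and 27022 of 45037 lay above the lowest 40% by mean (log2 5.90) and were tested. The platform annotation names 1 gene for 34945 probe sets, several for 932 and none for 9160.

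Differences were fitted with limma 3.58.1 (R 4.3.3; lmFit, eBayes with trend), two-sided, on all tested probe sets, p-values adjusted by Benjamini-Hochberg, threshold 0.05. Isoenzyme pairs were tested by exact permutation, and 4 of 5 planned pairs could be formed. The genes and lists were chosen with earlier results of these data known. Text names all isoenzymes, up to 4 called genes of largest change in each list (2 of highest signal where none was called), and the 5 genes most like the isoenzyme of lowest adjusted p. Markers and other genes were added beside results.

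On simulated data for this comparison, over 27022 probe sets, the fit recovered 43.3% of 1.5-fold, 74.6% of 2-fold and 84.8% of 4-fold changes, and 5.59% of calls were false. There 67, 67 and 66 probe sets changed at these sizes, whereas 3682 were called in the data. The simulated noise was normal and independent, with no difference in Y-linked signal, so these shares need not hold for the data. The number of arrays limits the precision. Alternatives covered pseudocounts, scaling, filters, probe set choice, eBayes settings, the replicate block, leaving out arrays and Y-linked signal. Promoter windows are RefSeq's.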

Additional observations from a re-analysis of the deposited data

How the results depend on the processing

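Leaving aside the fit over 3 arrays described below, Pgam2 stayed called lower under every alternative. Eno3 did so under every one but the Y-linked covariate. The count of isoenzyme probe sets called lower, 5 as reported, was 2 with quantile normalization, 2 with no filter, 2 without the eBayes trend, 1 with Y-linked signal as a covariate, 2 over the 3 arrays that held Xist beside Y-linked signal, and 2 to 4 leaving out 1 array. The count called higher, 0 as reported, was 1 with quantile normalization and 0 to 1 leaving out 1 array. In the pathway lists 20 genes were lower: 7 without the trend, 1 with the Y-linked covariate, 6 over those 3 arrays, and 11 to 22 leaving out 1 array. The 5 higher genes became 0 with the covariate and 3 over those 3 arrays. Those 3 arrays were chosen after seeing the data, include 1 labelled wildtype, whose spread is assumed to be that of the others, and still differ in Y-linked signal by label, so they support nothing. The cause was not tested. Over all probe sets, 1824 were higher and 1858 lower; median centring gave 1267 and 2365, the covariate 28 and 110, and no trend 886 and 903.

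Reversed differences concerned values that were not called. The brightest Pfkp probe set was -0.0227 with median centring, and leaving out 1 array it lay between -0.0368 and 0.0587. The dimmest Pfkp probe set was 0.00788 with array weights, 0.42 with the covariate and 0.14 over the 3 arrays, and leaving out 1 array it lay between -0.134 and 0.0789. The second brightest Aldoa probe set lay between -0.145 and 0.00630 leaving out 1 array. The brightest Pfkl probe set was 0.0662 with the covariate, the next lay between -0.0911 and 0.00679 leaving out 1 array, and the dimmest was -0.000975 with quantile normalization. Tkt was 0.00902 with quantile normalization and 0.0420 with the covariate, and lay between -0.0624 and 0.0142 leaving out 1 array. Pfkm minus Pfkl was -0.12 with the mean of all probe sets and lay between -0.0383 and 0.139 leaving out 1 array.

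Replicate numbers did not pair the arrays (correlations -0.00028, 0.0416 and 0.00549). With the number as a replicate block, 3 isoenzyme probe sets were lower.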

Other observations

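In 3 other marker lists some genes were higher in the arrays labelled Rhau KO, against 6.77% of all genes tested (limma). Of 8 tested neural markers 4 were higher and 0 lower. The largest rise among them was that of Ednrb, an endothelin receptor, at 0.78 (adjusted p = 2.56e-05). The 4 neural markers not called were Tubb3 at -0.38, Sox10 at 0.04, Eno2 at 0.33 and Stmn2 at 0.35. The neural count was 1 to 3 leaving out 1 array, and 1 with the Y-linked covariate; these values were computed after seeing the data. Of 13 endothelial markers 4 were higher and 0 lower, and that count was 2 to 3 leaving out 1 array and 0 with the covariate. Of 11 macrophage markers 2 were higher and 0 lower, and that count was 1 to 2 leaving out 1 array. The 2 were Lyz2 at 2.98 and Mrc1 at 0.43 (adjusted p = 4.87e-07 and 0.0230, limma). The other 9 were not called, with Csf1r at 0.04 and Cx3cr1 at -0.10. The fibroblast and matrix list had 1 of 10 genes higher and 2 lower, against 9.75% lower over all genes. In the epicardial list 0 of 8 were called, and in the liver, lung and gut epithelial list 1 of 5 tested was lower.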
